A study of Equus caballus with 28 samples.

Results

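The miR-148 family was followed in the small RNA libraries of mares and conceptuses. Its members were taken by name, as every row of the table of known horse miRNAs called eca-miR-148a, eca-miR-148b or eca-miR-152 with any arm suffix. Of the 690 known miRNAs, 3 rows met this rule, namely eca-miR-148a, eca-miR-148b-3p and eca-miR-148b-5p. No row carried the name eca-miR-152, which was not analysed here.

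MicroRNAs pair through a short stretch near their 5′ end, the seed, with matching sites in mRNAs and lower the stability and translation of those mRNAs. miR-148a, miR-148b-3p and miR-152 carry the same seed and are therefore regarded as one family, whereas miR-148b-5p comes from the opposite arm of the miR-148b hairpin and has another seed. The family is best known for repressing the DNA methyltransferase DNMT1, and in human placenta for repressing HLA-G, a class I molecule through which trophoblast cells meet maternal immune cells. miR-148a is also abundant in many epithelia and in milk. In the RefSeq gene table of the horse, MIR148B lies within COPZ1, which encodes a coat protein subunit of transport vesicles, and MIR148A lies between NPVF and NFE2L3 within no other gene.

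The 28 libraries came from 5 Warmblood mares, sampled 13 days after ovulation, when the equine conceptus is still mobile in the uterus. Each mare served as her own control in a pregnant and a cyclic (uninseminated) cycle, ovulation being induced with hCG in both. The groups were pregnant endometrium (n = 5, labelled uterus), cyclic endometrium (n = 4), uterine fluid (UF) of pregnant (n = 5) and cyclic (n = 4) mares, embryo tissue freed of its capsule (n = 5) and the fluid of its yolk sac (YS fluid, n = 5). No cyclic library of mare 5 was analysed, and all replicates are separate mares or their conceptuses. The sample titles give replicate numbers only, and these were taken here as the mares. RNA of both fluids was extracted with a serum and plasma kit and RNA of both tissues with another kit, so that the kit and the kind of sample cannot be told apart in any comparison of a fluid with a tissue.

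Depth differed widely, from 4352 miRNA reads in the smallest YS fluid library to 590593 in the largest library of pregnant endometrium. Counts were expressed as CPM, that is, scaled to a total of 1000000 miRNA reads in each library. A count of 3 reads, the limit that a count of 0 allows, amounted to 5.08 to 10.7 CPM in pregnant endometrium, 67.0 to 106 CPM in the embryo and 206 to 689 CPM in YS fluid. These limits cover counting error only. Predicted miRNAs took between 5.02% and 36.3% of the reads of an embryo library, with the highest share in embryo replicate 1, and at most 6.31% in any other library. Markers of pluripotent and trophoblast cells (8 rows of the miR-302, miR-367, miR-371 and miR-372 group) summed to 12020 to 65295 CPM in the embryo and 34891 to 264130 CPM in YS fluid, against at most 32.2 CPM in any endometrial or UF library. Markers of epithelium (5 rows of the miR-200 family) summed to 48634 to 131785 CPM over all groups.

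eca-miR-148a was by far the most abundant member, ranking 9th among the known miRNAs by mean CPM in the embryo and 12th in the endometrium of both states. In the embryo the 5 libraries held 14679, 15994, 46516, 30586 and 21713 CPM of eca-miR-148a (replicates 1 to 5, mean 25897 ± 13120, SD). In pregnant endometrium they held 7831, 9208, 15842, 12776 and 26609 CPM (mean 14453 ± 7481), and in cyclic endometrium 7116, 10301, 24164 and 13988 CPM (mean 13892 ± 7401). The 3 groups overlapped, with the lowest embryo library among the upper endometrial ones.

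In the fluids eca-miR-148a was lower. The YS fluid libraries held 7647, 7748, 13317, 9421 and 8878 CPM (mean 9402 ± 2314, SD, n = 5), which placed the miRNA 22nd. The UF of pregnant mares held 1032, 2285, 1007, 2253 and 3271 CPM (mean 1970 ± 959, n = 5) and that of cyclic mares 1899, 4295, 1192 and 1924 CPM (mean 2328 ± 1355, n = 4), at ranks 41 and 38. Every UF library lay below every endometrial, embryonic and YS fluid library. How many of all miRNAs separated in this way, here or in the comparisons below, was not counted. In the order of the group means, embryo, pregnant endometrium, cyclic endometrium, YS fluid, cyclic UF and pregnant UF, the step from YS fluid to cyclic UF (4.04-fold) was the only one between neighbours whose values did not overlap.

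eca-miR-148b-3p, the second carrier of the family seed, was the lower of the pair in most libraries and had a flatter profile over the maternal samples. Pregnant endometrium held 1526, 1130, 1778, 2339 and 1667 CPM of it (mean 1688 ± 439, SD) and cyclic endometrium 2054, 1501, 2032 and 1685 CPM (mean 1818 ± 270). The UF of pregnant mares held 1039, 1331, 818, 868 and 2109 CPM (mean 1233 ± 529) and that of cyclic mares 734, 1790, 918 and 980 CPM (mean 1106 ± 468). All 4 maternal groups overlapped with one another.

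By CPM, the conceptus held more eca-miR-148b-3p than the maternal samples. The 5 embryos gave 4857, 3864, 5331, 3984 and 5169 CPM (mean 4641 ± 678) and the YS fluids 5142, 11346, 3368, 3676 and 6056 CPM (mean 5917 ± 3225), every one above the highest maternal library. YS fluid replicate 2 stood highest. By the main test given below, no difference of embryo or YS fluid from pregnant endometrium or pregnant UF was called for this member. How many of all miRNAs separated likewise by CPM was not counted. The group means ran from YS fluid through embryo, cyclic endometrium, pregnant endometrium and pregnant UF to cyclic UF, and only the step from embryo to cyclic endometrium (2.55-fold) separated neighbours that did not overlap.

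eca-miR-148b-5p was rare, with between 0 and 15 reads per library. The embryos held 1, 9, 7, 8 and 8 reads of it, which corresponded to 35.5, 201, 193, 277 and 193 CPM (mean 180 ± 88.2, SD). The UF of pregnant mares held 4, 12, 12, 11 and 5 reads (mean 80.9 ± 38.7 CPM) and that of cyclic mares 6, 15, 1 and 13 reads (mean 45.9 ± 24.9 CPM). The endometrial libraries held 4, 7, 13, 7 and 5 reads in pregnancy (mean 19.3 ± 5.11 CPM) and 1, 9, 5 and 5 reads in the cycle (mean 19.4 ± 7.26 CPM). In YS fluid only 2 reads were found over 5 libraries, 1 each in replicates 1 and 2, so that no YS fluid library rose above the 3-read limit and the level there was not measurable at this depth. Neighbours in the order of the group means (embryo, pregnant UF, cyclic UF, YS fluid, cyclic endometrium, pregnant endometrium) overlapped throughout.

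**Figure D1:**
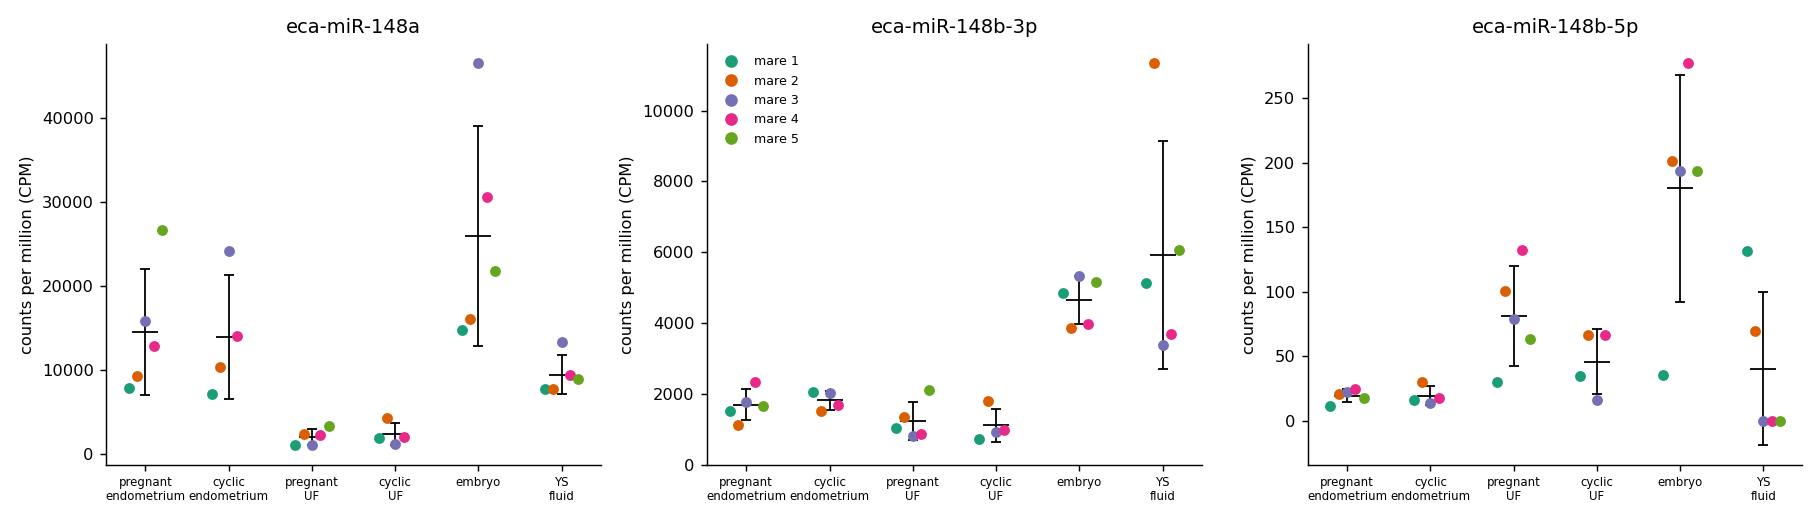
CPM (linear axes) of the 3 family members in each of the 28 libraries, by group and coloured by mare, with the group mean and SD in black. eca-miR-148a is lowest in both UF groups, eca-miR-148b-3p is higher in the embryo and YS fluid than in all maternal libraries, and eca-miR-148b-5p has no read in 3 of the 5 YS fluids.

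The plot of levels by library shows these profiles side by side: by CPM, eca-miR-148a was highest on average in the embryo, overlapping with the endometrium, and eca-miR-148b-3p was higher in the embryo and YS fluid than in all maternal libraries.

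Whether members differed between sample types was tested with edgeR's quasi-likelihood test on the counts, scaled by TMM (a trimmed mean of the fold changes of all miRNAs), with Benjamini-Hochberg adjustment over all miRNAs tested. A member was called where the adjusted p was at most 0.05 and the fold change at least 2. The same test over all known and predicted miRNAs gives the background share against which each call is to be read.

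Uterine fluid carried much less eca-miR-148a than the endometrium that borders it. In pregnant mares the log2 difference, UF minus endometrium, was -3.04 ± 0.40 (SE, edgeR adjusted p = 9.03e-05), an 8.24-fold lower level, and eca-miR-148a was lower in the fluid of 5 of 5 mares. In cyclic mares it was -2.89 ± 0.48 (adjusted p = 0.000371), lower in 4 of 4. The values of fluid and tissue did not overlap in either state, and the call was kept under each of 9 alternative analyses and with each mare left out (range -3.27 to -2.78 in pregnant and -3.37 to -2.15 in cyclic mares). In the background, 33.7% of miRNAs were called between UF and endometrium of pregnant mares and 30.8% in cyclic mares, with median log2 differences of -0.12 and -0.24.

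Neither of the other 2 members was called lower in UF. eca-miR-148b-3p differed by -0.62 ± 0.28 between UF and endometrium of pregnant mares (edgeR adjusted p = 0.0973) and by -0.90 ± 0.38 in cyclic mares (adjusted p = 0.0922), neither of which was called. The 95% intervals of these differences ran from -1.22 to -0.02 and from -1.70 to -0.09. eca-miR-148b-5p was higher in the UF of pregnant mares than in their endometrium by 1.90 ± 0.48 (adjusted p = 0.00567, higher in 5 of 5 mares), a call kept under all 8 alternatives that tested it. In cyclic mares the difference of 1.06 ± 0.61 was not called (adjusted p = 0.216), although it was positive in 4 of 4 mares. Whether these differences changed with pregnancy is given below with the interaction.

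The markers of other cells moved with this comparison. The summed level of smooth muscle and stroma markers (5 rows of miR-143, miR-145, miR-199a and miR-214, all with reads in UF) was 12110 to 45569 CPM in endometrium against 275 to 5532 CPM in UF. Markers of red blood cells (4 rows, 1 of them at 0 in cyclic UF) summed to 2674 to 13506 CPM and 519 to 3246 CPM, and the 2 rows of miR-126, an endothelial miRNA, to 1598 to 4816 CPM and 7.42 to 316 CPM, respectively. The summed leukocyte markers (5 rows) overlapped, at 1956 to 3474 CPM in endometrium and 1268 to 2791 CPM in UF. Their single rows differed by -2.02 to 0.91 on the log2 scale in pregnant mares, with 1 called lower in UF by edgeR. In cyclic mares they differed by -2.04 to 0.25, with 0 called. Their part in the levels of eca-miR-148a was not tested, and in such bulk samples fewer cells of a type and less miRNA per cell cannot be told apart.

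Comparisons with the embryo and YS fluid depended on how the libraries were scaled. Replacing TMM by library totals alone moved the median log2 difference of all tested miRNAs by 1.33 in embryo versus pregnant endometrium, by 2.00 in YS fluid versus pregnant endometrium, by 1.41 in embryo versus pregnant UF, by 1.68 in YS fluid versus pregnant UF and by -0.61 in embryo versus YS fluid. Scaling by median ratios (RLE) gave values between the other two. Within the maternal groups the shift lay between -0.23 and 0.16. Differences are therefore also given relative to the median of all tested miRNAs, a description with no test. A change of scaling shifts all miRNAs by similar amounts, so these relative values hardly move with it by construction.

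eca-miR-148a was higher in the embryo than in either fluid of the pregnant uterus. Embryo and pregnant UF differed by 2.24 ± 0.42 on the log2 scale (edgeR adjusted p = 0.000612, higher in the embryo of 5 of 5 mares, 68.4% of miRNAs called). Embryo and YS fluid differed by 2.05 ± 0.37 (adjusted p = 0.00231, higher in 5 of 5 conceptuses, 35.1% called). Neither pair of groups overlapped, and both calls were kept under 9 of 9 alternatives and with each mare left out, with ranges of 1.74 to 3.72 and 1.46 to 2.14. Relative to the median miRNA the differences were 2.47 and 1.76.

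Between embryo and pregnant endometrium, both tissues extracted with the same kit, only eca-miR-148b-5p was called. eca-miR-148a overlapped and was not called (-0.46 ± 0.40, edgeR adjusted p = 0.306, 95% interval -1.33 to 0.41), and its sign changed with the scaling, to 0.01 with RLE and 0.84 with library totals. eca-miR-148b-3p was not called with TMM (0.16 ± 0.25, adjusted p = 0.602) but was called with library totals (1.46, adjusted p = 0.000947), and relative to the median miRNA it stood 1.18 higher. eca-miR-148b-5p was higher in the embryo by 1.85 ± 0.45 (adjusted p = 0.00332, 5 of 5 mares, values not overlapping). The call was kept under the 8 alternatives that tested it and with each mare left out (1.59 to 3.19). Embryo replicate 1, however, held 1 read of it (35.5 CPM), below that library's 3-read limit of 106 CPM. The place of this library above the endometrium rests on that read. In this comparison 71.3% of all miRNAs were called, so a call here was the more frequent outcome. The embryo libraries also held little of the other maternal cell markers, with smooth muscle and stroma at 156 to 797 CPM (2 of 5 rows at 0), leukocytes at 48.3 to 193 CPM (2 of 5 rows at 0) and red blood cells at 112 to 314 CPM (1 of 4 rows at 0), and their part in these differences was not tested.

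YS fluid, the thinnest group in reads, gave fewer firm differences. eca-miR-148a was lower there than in pregnant endometrium by TMM (-2.64 ± 0.42, edgeR adjusted p = 7.15e-05, 53.1% of miRNAs called), but the difference fell to -0.61 with library totals (adjusted p = 0.159), and the CPM values overlapped. Relative to the median miRNA it stood at -1.80. eca-miR-148b-3p was not called (-0.20 ± 0.38, adjusted p = 0.655), and turned to 0.64 with RLE and to 1.83, then called, with library totals. Without replicate 2, whose YS fluid held the highest level, it was called lower, at -1.01 (adjusted p = 0.038).

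Against pregnant UF, the other fluid, YS fluid held more of both members with the family seed by CPM, in 5 of 5 mares and without overlap. With TMM neither was called, at 0.54 ± 0.39 for eca-miR-148a (edgeR adjusted p = 0.244) and 0.68 ± 0.48 for eca-miR-148b-3p (adjusted p = 0.237). Both were called with RLE (1.27 and 1.36) and with library totals (2.26 and 2.29), and relative to the median miRNA they stood 1.08 and 1.21 higher. Here 59.6% of all miRNAs were called.

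eca-miR-148b-3p did not separate the embryo from the fluids by the main test, with 0.44 ± 0.31 against pregnant UF (edgeR adjusted p = 0.227) and 0.22 ± 0.43 against YS fluid (adjusted p = 0.692). The first of these was called with RLE (1.15) and with library totals (1.91), and without replicate 5 (1.06, adjusted p = 0.0247). eca-miR-148b-5p did not differ detectably between embryo and pregnant UF (-0.36 ± 0.58, adjusted p = 0.611), its sign turning to 0.34 with RLE and 1.17 with totals.

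For eca-miR-148b-5p in YS fluid the fit returned calls that rest on 2 reads. It was called lower in YS fluid than in the embryo (embryo minus YS fluid 2.67 ± 0.82, edgeR adjusted p = 0.030) and than in pregnant UF (-2.62 ± 0.86, adjusted p = 0.0166), and not called against pregnant endometrium (-1.06 ± 0.83, adjusted p = 0.305). By pooled reads, 33 of 179448 in the embryo and 2 of 53989 in YS fluid gave a ratio of 4.96 with an exact 95% counting interval of 1.27 to 42.7. The ratio of YS fluid to pregnant UF (44 of 569244 reads) was 0.479, with an interval of 0.0563 to 1.84 that includes 1. For pregnant endometrium (36 of 1840629 reads) it was 1.89, with an interval of 0.221 to 7.36 and the opposite direction to the fitted difference. The call against the embryo was lost without replicate 2, 3, 4 or 5 (2.31 to 3.06), with the mare as a block (2.57, adjusted p = 0.0742) and with library totals (2.11, adjusted p = 0.0638). The call against pregnant UF was lost without replicate 3 (-2.10) or 4 (-2.24), with RLE (-2.02), with DESeq2 (-1.99, adjusted p = 0.127) and with library totals (-1.04, adjusted p = 0.343).

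**Figure D2:**
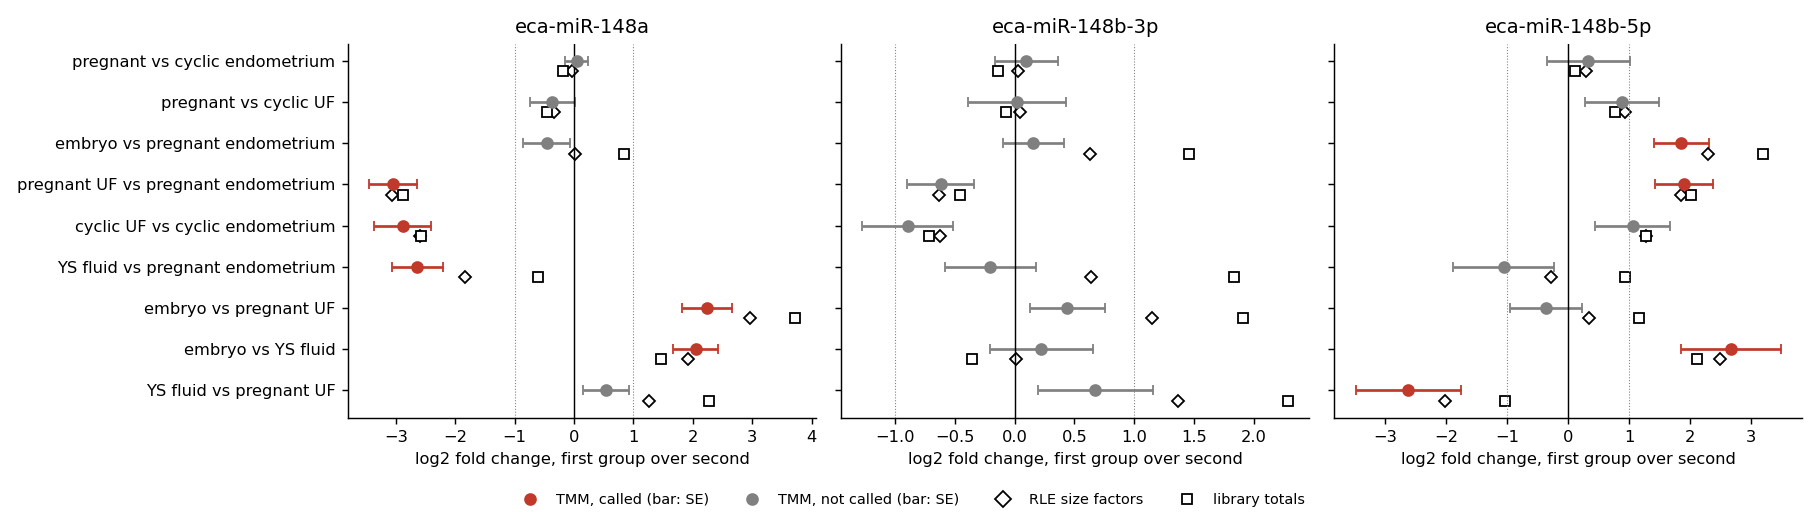
Log2 fold change of each member in 9 comparisons (first group over second), with filled points and SE bars for the TMM-scaled edgeR fit, red where called, and open symbols for RLE (diamonds) and library totals (squares). Dotted lines mark a 2-fold change. The scalings lie close together in comparisons of maternal samples and spread apart where the embryo or YS fluid is compared with maternal samples, while eca-miR-148a stays below -2 in UF against endometrium with all 3.

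As the plot of log2 fold changes shows, the open symbols of all 3 members move together within a comparison, by similar amounts for each member. Such a shared shift follows from the scaling itself.

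Pregnancy at this stage was not accompanied by a called change in any member. In endometrium the log2 differences, pregnant minus cyclic with the mare as block, were 0.04 ± 0.19 for eca-miR-148a (edgeR adjusted p = 0.975), 0.10 ± 0.26 for eca-miR-148b-3p (adjusted p = 0.94) and 0.33 ± 0.68 for eca-miR-148b-5p (adjusted p = 0.915). Their 95% intervals were -0.34 to 0.42, -0.42 to 0.61 and -0.99 to 1.66. In this fit, whose spread was pooled over all miRNAs, a 2-fold change lies outside the interval for the 2 members with the family seed. For eca-miR-148b-5p it does not. The SE of eca-miR-148a was larger in other fits, with 0.26 ± 0.42 without the block and 0.154 ± 0.495 in a fit of all 28 libraries. For eca-miR-148a a 2-fold change was therefore not excluded in these other fits. For eca-miR-148b-3p the same fits gave 0.12 ± 0.28 and 0.053 ± 0.363. Of all miRNAs tested, 3.37% were called. By CPM, eca-miR-148a was lower in the pregnant cycle of 3 of 4 mares (log2 differences from -0.61 to 0.14), and eca-miR-148b-3p likewise in 3 of 4 (-0.43 to 0.47).

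In UF the corresponding differences were -0.37 ± 0.38 for eca-miR-148a (edgeR adjusted p = 0.835, 95% interval -1.11 to 0.38), 0.02 ± 0.41 for eca-miR-148b-3p (adjusted p = 0.996, -0.79 to 0.82) and 0.88 ± 0.61 for eca-miR-148b-5p (adjusted p = 0.613, -0.31 to 2.08), with 4.92% of miRNAs called. eca-miR-148a was lower in the pregnant UF of 3 of 4 mares and eca-miR-148b-5p higher in 3 of 4. Because the mare was a block, the pregnant UF of mare 5, which had no cyclic partner, entered only through shared steps such as the filter and scaling. Without mare 5 the differences were -0.44 for eca-miR-148a, -0.056 for eca-miR-148b-3p and 0.81 for eca-miR-148b-5p, none of them called. The interaction of state and compartment, that is, the pregnancy difference in UF minus that in endometrium, was -0.53 ± 0.41 for eca-miR-148a (adjusted p = 0.933), -0.20 ± 0.44 for eca-miR-148b-3p (adjusted p = 1) and 0.43 ± 0.83 for eca-miR-148b-5p (adjusted p = 0.992), with 1.69% of miRNAs called.

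**Figure D3:**
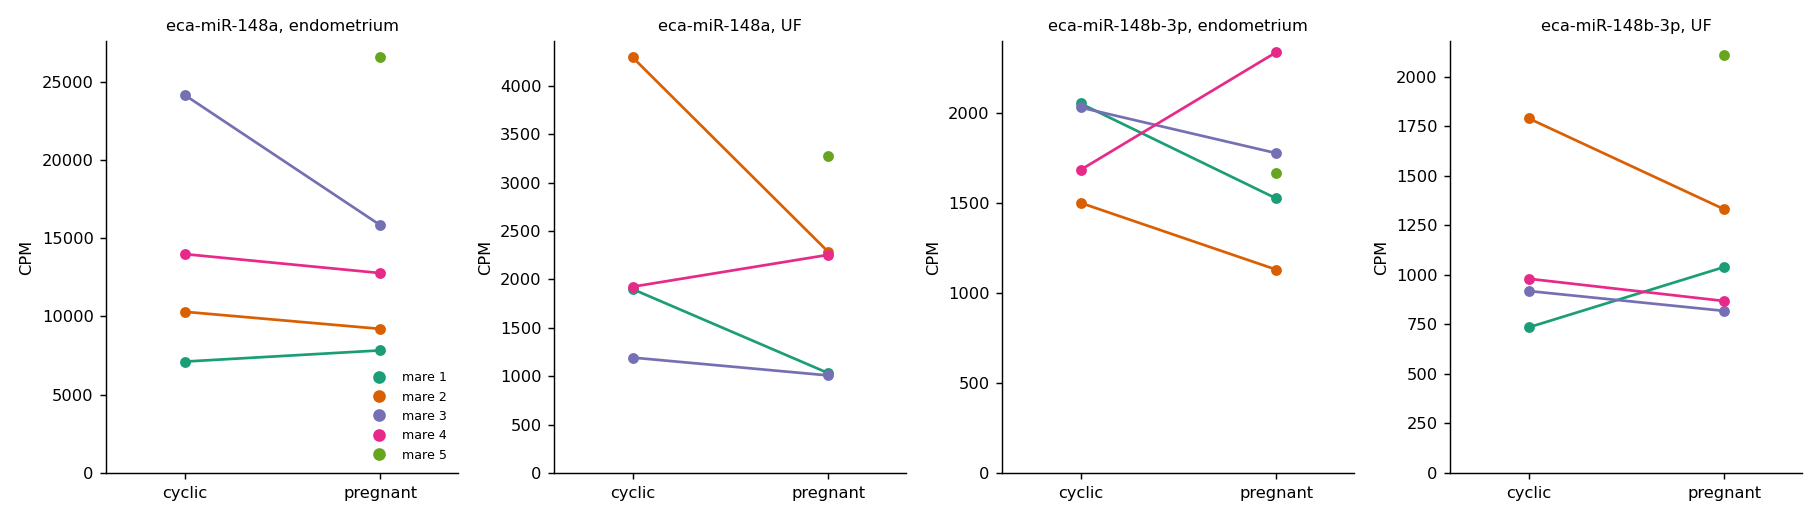
CPM (linear axes from 0) of eca-miR-148a and eca-miR-148b-3p in the cyclic and pregnant cycles of each mare, in endometrium and UF. Lines join the 2 cycles of 1 mare, and mare 5 has pregnant libraries only. Lines run downward in 3 of 4 mares in each panel.

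The plot of paired cycles shows that, in endometrium, mare 3 held the most eca-miR-148a of the 4 paired mares and mare 1 the least in both cycles.

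The ratio of eca-miR-148a to eca-miR-148b-3p within a library does not depend on depth or scaling, and is given without a test. It was high in the tissues. In pregnant endometrium it was 5.13, 8.15, 8.91, 5.46 and 16.0 (geometric mean 7.98), in cyclic endometrium 3.46, 6.86, 11.9 and 8.30 (6.95) and in the embryo 3.02, 4.14, 8.73, 7.68 and 4.20 (5.11). These groups overlapped.

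In the fluids the ratio was lower on average, though eca-miR-148a still exceeded eca-miR-148b-3p in most libraries. The ratio was 0.993, 1.72, 1.23, 2.60 and 1.55 in pregnant UF (geometric mean 1.53), 2.59, 2.40, 1.30 and 1.96 in cyclic UF (1.99) and 1.49, 0.683, 3.95, 2.56 and 1.47 in YS fluid (1.71). No UF library reached the ratio of any endometrial or embryonic library, whereas YS fluid overlapped with the embryo and with cyclic endometrium. The ratio was nevertheless higher in the embryo than in the YS fluid of the same conceptus in 5 of 5 cases, by 1.03 to 2.59 on the log2 scale, and higher in endometrium than in UF in 5 of 5 pregnant and 4 of 4 cyclic cycles. Accordingly eca-miR-148a made up 88.1 ± 4.27% (SD) of the family's reads in pregnant endometrium, 86.5 ± 6.36% in cyclic endometrium and 82.4 ± 6.01% in the embryo, but 58.6 ± 7.85% in pregnant UF, 65.5 ± 6.85% in cyclic UF and 62.2 ± 15.0% in YS fluid. The 2 sequences are nearly identical, and how reads matching both were assigned is not given in the sources used here, so reads could have been divided between them.

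The arms of the miR-148b hairpin also stood in different proportions. The geometric mean ratio of the 3p to the 5p arm was 81.2 in pregnant endometrium and 83.0 in cyclic endometrium, against 15.0 and 23.0 in the UF of the same states and 27.2 in the embryo. The embryo ratio ranged from 14.4 to 137, the latter in replicate 1 with a single 5p read. In YS fluid, with 2 reads of the 5p arm, no ratio was read.

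**Figure D4:**
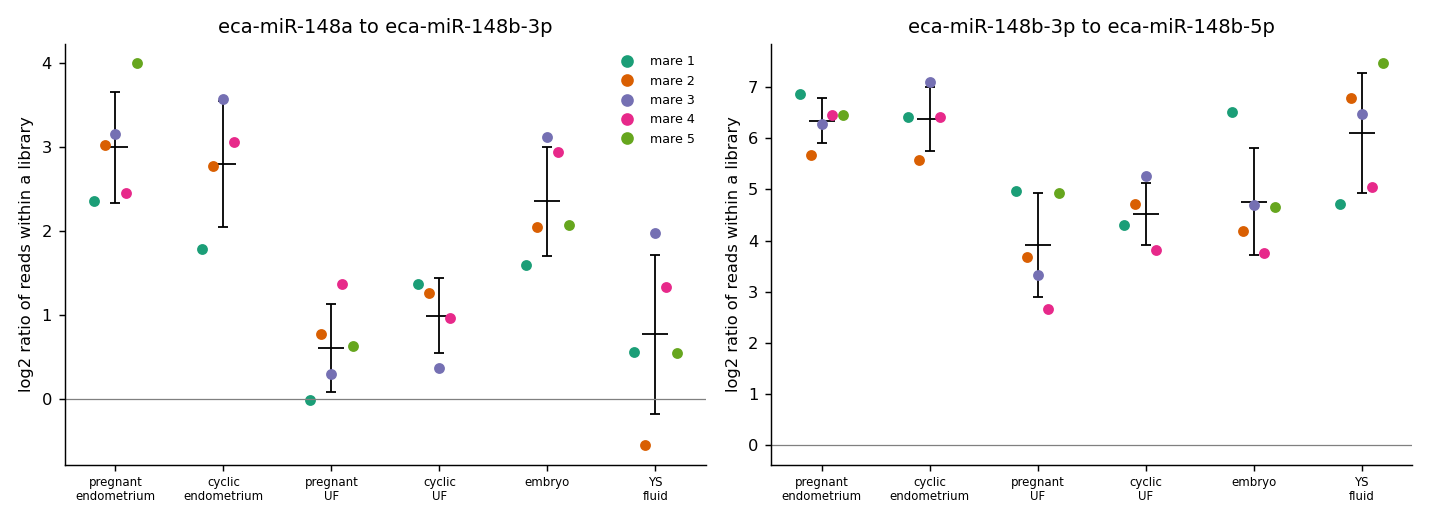
Log2 ratio of reads within a library (0.5 read added to each count) of eca-miR-148a to eca-miR-148b-3p and of the 3p to the 5p arm of miR-148b, by group and coloured by mare, with the mean and SD in black. The first ratio is higher in all tissue groups than in UF, and the second is higher in endometrium than in pregnant UF. The YS fluid points of the second rest on at most 1 read of the 5p arm each.

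In the plot of ratios, UF stands below both tissues in the first ratio. YS fluid overlaps with UF, with the embryo and with cyclic endometrium.

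Rows named after other miRNAs known to repress DNA methyltransferases were mostly lower in the conceptus than in pregnant endometrium. They were matched with any arm suffix, so both arms of miR-126 and of miR-342 were counted. Which arm acts on a methyltransferase was not considered, so the counts are of rows. Of this list (miR-29a, miR-29b, miR-29c, miR-185, miR-342, miR-126, miR-143 and miR-101, 10 rows), 9 of 9 tested were lower in the embryo than in pregnant endometrium, with a median log2 difference of -5.30 against -1.02 for all miRNAs, and 8 of 9 were lower in YS fluid. These were still 9 of 9 and 7 of 9 with RLE and with library totals. Over all miRNAs tested, 153 of 359 were called lower in the embryo and 120 of 341 in YS fluid. Between UF and endometrium 4 of 9 were lower in each state, against 72 of 359 miRNAs in pregnant and 62 of 328 in cyclic mares. In each state these 4 were eca-miR-101, eca-miR-143, eca-miR-126-3p and eca-miR-126-5p, and no row of miR-29 or miR-342 was called. Between pregnant and cyclic samples edgeR and DESeq2 each called 0 of 9, with 0 of 9 in endometrium and 2 of 9 in UF (eca-miR-101 and eca-miR-126-5p) at an unadjusted p under 0.05. eca-miR-29a, which represses DNMT3A and DNMT3B as well as collagens, fell from 1485 ± 796 CPM (SD, n = 5) in pregnant endometrium to 92.8 ± 92.1 CPM in the embryo (log2 difference -5.30 ± 0.69, edgeR adjusted p = 3.89e-05). eca-miR-101, which targets EZH2, fell by 2.87 ± 0.47 on the same scale (adjusted p = 0.00024). Against pregnant UF 6 of 8 were lower in the embryo (120 of 310 over all miRNAs) and 5 of 8 in YS fluid (100 of 277), and 1 of 6, eca-miR-101, was higher in the embryo than in YS fluid, a call lost with library totals (1.68, adjusted p = 0.0789), with which eca-miR-143 was called lower in the embryo (-2.26, adjusted p = 0.0427). Over all miRNAs, 57 of 259 were called higher in the embryo than in YS fluid. With RLE and with totals the count against pregnant UF was 5 of 8 in the embryo, and 4 and 3 of 8 in YS fluid. The list holds miR-143 and miR-126, which also serve as markers of stroma and endothelium.

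The family of miR-130, miR-301 and miR-454, whose seed is shifted by 1 base from that of miR-148, has 6 rows in the table. Of these, 4 of 5 tested were higher in the embryo than in pregnant endometrium (median log2 difference 2.64, against -1.02 and 103 of 359 called higher over all miRNAs), a count that was the same with RLE and with library totals, and 2 of 4 were higher and 1 lower in YS fluid, the latter not with totals (61 higher and 120 lower of 341 over all miRNAs). eca-miR-130b rose from 12.1 ± 8.83 CPM (SD, n = 5) in pregnant endometrium to 1568 ± 228 CPM in the embryo (log2 difference 5.67 ± 0.60, edgeR adjusted p = 6.47e-06), whereas eca-miR-130a was not called (-0.71 ± 0.38, adjusted p = 0.103) and turned to 0.64 with totals. In pregnant UF against endometrium 1 of 4 was higher, eca-miR-454 (1.94), and 1 lower, eca-miR-130a (-1.19), and in cyclic mares 0 of 4 were called by edgeR or DESeq2, with 0 at an unadjusted p under 0.05 (over all miRNAs, 33.7% and 30.8% were called). In the embryo 1 of 4 was higher than in pregnant UF (3 with RLE and 4 with totals) and 2 of 4 higher than in YS fluid (1 and 0). YS fluid had 1 higher and 1 lower of 4 against pregnant UF (2 higher with RLE and with totals). Against these few rows stand 68.4%, 35.1% and 59.6% of all miRNAs called in the same comparisons. Between pregnant and cyclic samples edgeR and DESeq2 called 0 of 4 in endometrium and 0 of 4 in UF, with 0 in each at an unadjusted p under 0.05 in the edgeR fit.

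Profiles over the 6 groups were compared by the root mean square difference of centred group means of log2(CPM + 1), over 149 known miRNAs with a mean of at least 100 CPM. Closest to eca-miR-148a were eca-miR-590-3p (0.605), eca-miR-140-5p (0.707) and eca-miR-374a (0.763), against a median of 2.03 over all candidates. Its own relative eca-miR-148b-3p stood farther off, at 0.984. eca-miR-148b-3p was closest to eca-miR-423-3p and eca-miR-30c (both 0.286) and to eca-miR-200b (0.415), an epithelial miRNA, with a median of 1.98. Closest to eca-miR-148b-5p were eca-miR-335 (0.561), eca-miR-340-3p (0.775) and eca-miR-301a (0.96), against a median of 2.50, its YS fluid value resting on 2 reads.

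**Figure D5:**
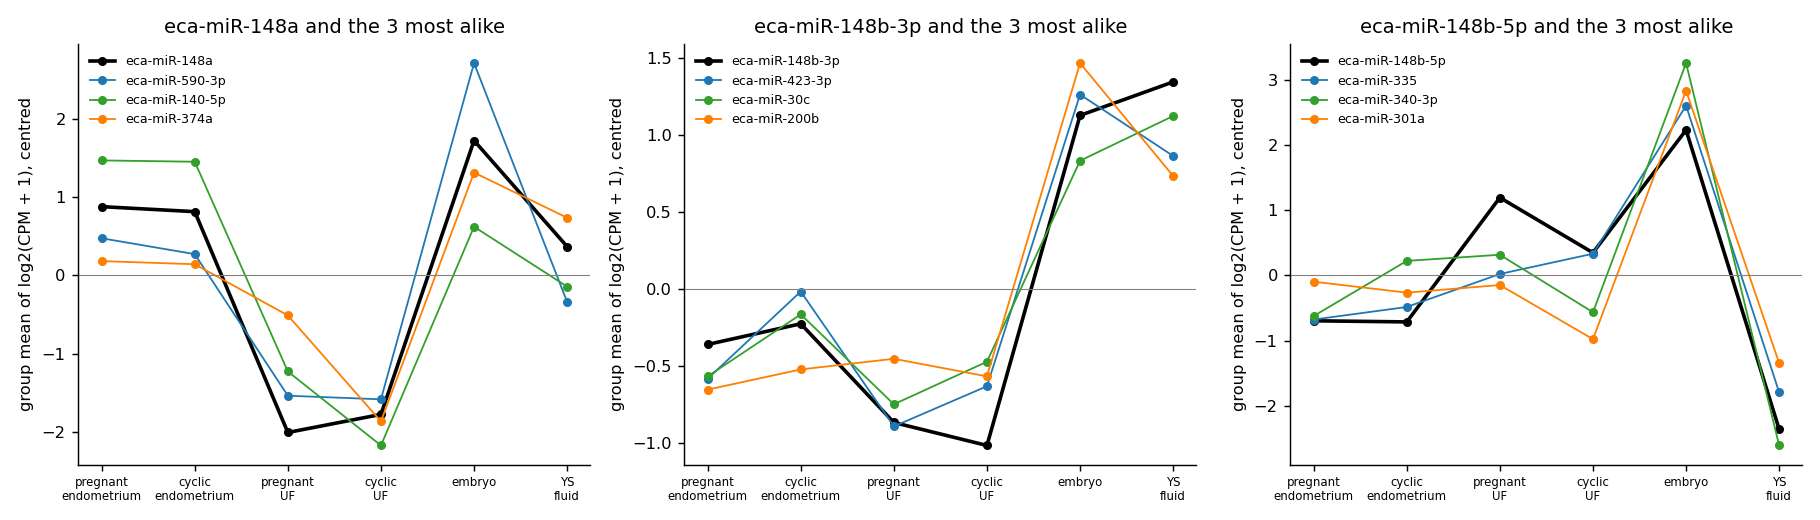
Group means of log2(CPM + 1), centred on the mean over the 6 groups, of each member (black) and of the 3 known miRNAs with the smallest root mean square difference from it. eca-miR-148a and its neighbours fall in both UF groups and peak in embryo or endometrium, eca-miR-148b-3p and its neighbours are higher in the embryo and YS fluid than in maternal samples, and eca-miR-148b-5p and its neighbours peak in the embryo.

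In the plot of profiles the 6 points of each line share their libraries and depth, and the likeness is a description of these groups.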

How the data were processed

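Small RNA of 28 samples was sequenced by the authors on a MiSeq. Per the labels and the study's methods, adapters were removed with cutadapt 1.11 and reads were assigned with miRPro to miRBase miRNAs on the EquCab2.0 genome. The deposited values are raw counts of reads per mature miRNA, and the table of predicted miRNAs (154 rows) was added for library totals and tests. A second table of precursors was not used. Samples were grouped by their titles. The replicate number in the titles was taken as the mare, which the titles do not state.

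Counts were tested with edgeR 4.0.16 in R 4.3.3 (TMM, at least 1 CPM in as many libraries as the smaller group, quasi-likelihood F test, with the libraries of the 2 groups compared). Pregnant and cyclic samples came from the same mares, so the mare was a block. Deviations of same-numbered samples correlated on average by 0.165 in endometrium (-0.141 to 0.293) and by 0.235 in UF (0.019 to 0.384). In the other comparisons these averages ran from -0.097 (embryo versus pregnant endometrium) to 0.097 (embryo versus pregnant UF). In the fits of pregnant versus cyclic samples the spread was pooled over all miRNAs. Intervals of differences are 95% intervals from the SE and the fit's degrees of freedom, and the counting intervals are exact. Log2 ratios and geometric means of ratios had 0.5 read added to each count, and the ratios printed for single libraries had none. Alternatives were DESeq2 1.42.0, a likelihood ratio test, RLE or totals in place of TMM, other filters, known miRNAs only, 1 fit over 28 libraries, the block, and leaving out each mare. The code was tested on simulated data. The miRNAs most alike were the 3 with the smallest difference, and list examples those with the highest mean CPM. The name rule for the members and the lists were set with earlier results of these data known. Since no row was named eca-miR-152, the intended test of its ratio to eca-miR-148a was not run, and the ratio of eca-miR-148a to eca-miR-148b-3p is described in its place. Gene neighbours come from the RefSeq gene table of another horse assembly than EquCab2.0, so no coordinates are given.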

Additional observations from a re-analysis of the deposited data

How the results depend on the processing

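Over 369 alternative fits of the members' log2 differences, 299 kept direction and side of the threshold, 12 lost a call, 16 gained one and 42 changed sign. The calls of lower eca-miR-148a in UF, of higher eca-miR-148a in the embryo than in either fluid, and of higher eca-miR-148b-5p in embryo and pregnant UF than in pregnant endometrium were kept in every alternative that gave a value. The edgeR filter with a minimum count of 10 removed eca-miR-148b-5p, which then had no value. Depth limits eca-miR-148b-5p throughout, and YS fluid for every member. Except where the alternative itself tests fewer miRNAs or libraries, the cause of a change was not tested.

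Between pregnant and cyclic endometrium, none of the changes of sign came with a call. eca-miR-148a was -0.030 with DESeq2, -0.029 with RLE, -0.19 with library totals, -0.0075 without a filter and -0.022 with known miRNAs only, and -0.18 to 0.037 with each mare left out. eca-miR-148b-3p was -0.14 with totals and -0.11 to 0.13 with each mare left out, and eca-miR-148b-5p -0.10 to 0.57. In UF, eca-miR-148b-3p was -0.069 with totals and -0.044 with the stricter filter, and -0.19 to 0.092 with each mare left out. Its interaction was 0.015 without the replicate block.

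With library totals, the difference from pregnant endometrium was 0.84 for eca-miR-148a and 1.46 for eca-miR-148b-3p in the embryo, and -0.61, 1.83 and 0.94 for eca-miR-148a, eca-miR-148b-3p and eca-miR-148b-5p in YS fluid. Embryo minus pregnant UF was 1.91 for eca-miR-148b-3p and 1.17 for eca-miR-148b-5p, embryo minus YS fluid -0.36 for eca-miR-148b-3p and 2.11 for eca-miR-148b-5p, and YS fluid minus pregnant UF 2.26, 2.29 and -1.04 for the 3 members. RLE and DESeq2 gave 0.0145 and 0.0144 for eca-miR-148a in embryo versus endometrium. For eca-miR-148b-3p they gave 0.64 and 0.65 in YS fluid versus endometrium, 1.15 and 1.14 in embryo versus UF and 1.36 and 1.37 in YS fluid versus UF. For eca-miR-148b-5p in embryo versus UF they gave 0.34 and 0.36, and in YS fluid versus UF -2.02 and -1.99, while eca-miR-148a in the latter was 1.27 with both. The stricter filter and known miRNAs only gave 1.39 and 1.03 for eca-miR-148a and 1.50 and 1.13 for eca-miR-148b-3p in YS fluid versus UF, and 0.47 and 0.52 for eca-miR-148b-3p in YS fluid versus endometrium. Known miRNAs only gave 0.13 for eca-miR-148b-5p in embryo versus UF, and the stricter filter -0.21 for eca-miR-148b-3p in embryo versus YS fluid. A fit of all 28 libraries gave -0.16 and -0.035 for eca-miR-148b-3p in embryo versus endometrium and versus YS fluid.

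With each mare left out, eca-miR-148b-3p ranged from -0.067 to 0.27 in embryo versus endometrium, -1.01 (without replicate 2, called) to 0.019 in YS fluid versus endometrium, 0.28 to 1.06 (without replicate 5, called) in embryo versus UF and -0.083 to 0.76 in embryo versus YS fluid. eca-miR-148b-5p ranged from -0.39 to 0.10 in embryo versus UF, from 2.31 to 3.38 in embryo versus YS fluid (not called without replicate 2, 3, 4 or 5) and from -3.41 to -2.10 in YS fluid versus UF (not called without replicate 3 or 4). The replicate block for mares, added where the main fit had none, lost the call of eca-miR-148b-5p in embryo versus YS fluid (2.57, adjusted p = 0.0742) and changed no other call of a member, nor did leaving it out of the pregnant versus cyclic fits.

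Counts of called miRNAs moved more. In pregnant versus cyclic endometrium 13 calls became 3 with the stricter filter, 2 with known miRNAs only, and 0 both without the replicate block (58 at an unadjusted p under 0.05, and 12 calls with DESeq2 and the block) and in the fit of 28 libraries (23). In UF 15 became 7 with DESeq2, 0 with the stricter filter (19 at an unadjusted p under 0.05), 3 with known miRNAs only, 2 in the fit of 28 libraries, 0 without the block (35) and 2 (without replicate 3) to 26 (without replicate 1) with each mare left out, 7 without replicate 2 and 3 without replicate 4. The stricter filter gave 140 for 256 in embryo versus endometrium, 75 for 121 in pregnant UF versus endometrium, 101 for 212 in embryo versus UF and 90 for 165 in YS fluid versus UF. In embryo versus YS fluid 91 became 40 with that filter, 140 in the fit of 28 libraries, 54 with the replicate block and 40 to 60 without replicate 1, 2, 4 or 5. The interaction's 7 became 0 without the block (26 at an unadjusted p under 0.05).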
